A study of Mus musculus with 2 samples.

Results

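The 10 genes described here encode receptors that give T cells a second signal beside the antigen receptor, 1 adaptor of such receptors, and the transcription factor of regulatory T cells. They are Tnfrsf18, Tnfrsf4, Tnfrsf9, Traf1, Cd27 (older Tnfrsf7), Cd28, Icos, Ctla4, Pdcd1 and Foxp3. All gene probes of the array that carried 1 of these names were used, also those with hardly any signal in 1 channel, which gave 14 probes and 23 spots of 41174 gene probes and 43379 gene spots per array. RNA of the pancreatic lymph node, the node that drains the pancreas, was measured in NOD (non-obese diabetic) mice, in which autoimmune diabetes arises spontaneously. There were 2 hyperglycemic females aged 16 weeks with blood glucose above 500 mg/dl, each hybridised in Cy5 on an array of its own (mouse 1 on array 1, mouse 2 on array 2). The control was 1 pool of RNA from 2 euglycemic females of the same age and strain with glucose below 200 mg/dl, which was hybridised in Cy3 on both arrays. The labels list no transgene, targeted allele or treatment. The whole node was measured, so fewer cells of a type and less RNA per cell cannot be told apart in any value below.

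T cells need 2 kinds of signal to become activated, 1 through the antigen receptor and 1 through costimulatory receptors. CD28 and ICOS are costimulatory receptors of the immunoglobulin superfamily, and CTLA4 and PD-1 (Pdcd1) are their inhibitory relatives, known as checkpoints. GITR (Tnfrsf18), OX40 (Tnfrsf4), 4-1BB (Tnfrsf9) and CD27 belong to the tumour necrosis factor (TNF) receptor superfamily and signal through TRAF adaptors to NF-kappaB. TRAF1 is an adaptor that NF-kappaB itself induces in activated lymphocytes. FOXP3 specifies regulatory T cells, which carry GITR, OX40, CTLA4 and ICOS at high levels and restrain autoimmune diabetes in NOD mice.

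A log2 ratio below is the hyperglycemic mouse over the pool, so a negative value is a lower signal in the hyperglycemic mouse. It is given in 2 versions. The processed ratio is that of the scanning software, which also is the authors' deposited log2 ratio for the probes in their table. The normexp ratio was computed here from mean spot signals with a background correction that adds an offset of 50 and thereby draws the ratios of dim spots towards 0. The normexp ratios were fitted with limma over 8815 probes that passed a background filter, and the processed ratios over the 5072 gene probes of the deposited table. Each fit was tested against 0, with p adjusted by Benjamini-Hochberg over its own probes and called at an adjusted p under 0.05. The adjusted p values of the 2 versions thus differ in the choice of probes as well as in the ratio. Since both arrays carry the same pool, neither test includes the variation between control animals, and without a dye swap a dye effect of a single probe cannot be told apart from the difference between the groups.

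The Cy5 channel of the hyperglycemic mice was dim and the Cy3 channel of the pool was bright. Over all gene spots the median Cy5 signal was 37.7 and 38.2 scanner units over a local background of 35 on each array, against 234 and 81.2 units over backgrounds of 31 and 31.5 for the pool in Cy3. Well above background were 14.5% and 16.4% of spots in Cy5, against 21.7% and 63.0% in Cy3. The low share in Cy3 on array 1 went with an uneven background there, whose fitted surface averaged 218 units on array 1 and 47.6 units on array 2. For that reason each result is given per array, and with a filter that reads background flags on array 2 alone where that changes it. Of the 14 probes, 6 exceeded background clearly on each array in Cy5, Cy3 or both and entered the normexp fit, 4 of these are in the deposited table, and 11 passed the filter on array 2 alone.

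**Figure D1:**
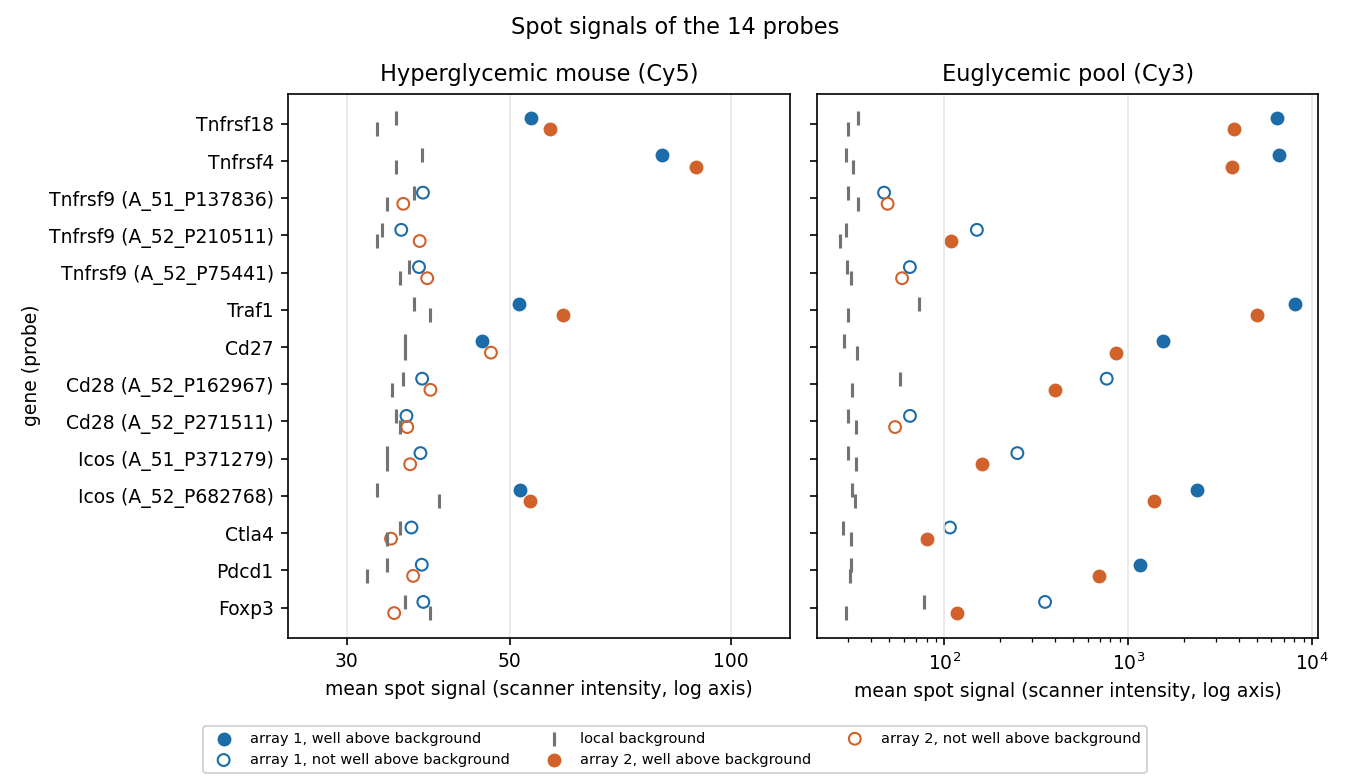
Mean spot signal in scanner units (log axis) of the 14 probes, with the hyperglycemic mouse (Cy5) in the left panel and the euglycemic pool (Cy3) in the right panel. Filled points were well above background, open points were not, and grey ticks mark the local background of each spot. No Cy5 signal exceeded 90 units, while Traf1, Tnfrsf18 and Tnfrsf4 read at least 3646 units in the pool on both arrays. The 2 panels have different scales, and signals of different probes are not comparable levels. Cy5 was dimmer than Cy3 over all gene spots, so the gap between the panels is not a ratio to the pool.

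Traf1 and Tnfrsf18 had the lowest ratios to the pool among the members measured in both channels, and Tnfrsf4, the neighbouring gene of Tnfrsf18, differed from the pool by much less. The promoters of these 3 genes are shown because Traf1 and Tnfrsf18 were both called lower in the deposited ratios and Tnfrsf4 lies beside Tnfrsf18. Each is 300 bases, 250 before and 50 after the annotated start, from RefSeq on build GRCm38.p6, read 5′ to 3′ along the gene. Capitals mark GGAAA on either strand, the core that NFAT factors bind downstream of the T cell receptor.
Traf1, chr2:34961723-34962022, minus strand: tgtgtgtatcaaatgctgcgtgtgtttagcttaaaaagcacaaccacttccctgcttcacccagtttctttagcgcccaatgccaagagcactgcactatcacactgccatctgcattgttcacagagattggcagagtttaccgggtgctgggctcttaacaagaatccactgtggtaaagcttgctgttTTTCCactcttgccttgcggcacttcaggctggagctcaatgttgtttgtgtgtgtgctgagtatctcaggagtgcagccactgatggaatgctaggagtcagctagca
Tnfrsf18, chr4:156026072-156026371, plus strand: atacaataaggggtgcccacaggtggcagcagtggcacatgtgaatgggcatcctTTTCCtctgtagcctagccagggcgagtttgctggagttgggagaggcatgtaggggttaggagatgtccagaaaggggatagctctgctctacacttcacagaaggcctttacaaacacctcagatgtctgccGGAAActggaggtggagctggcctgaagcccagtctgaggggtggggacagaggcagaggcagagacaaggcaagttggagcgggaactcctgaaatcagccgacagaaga
Tnfrsf4, chr4:156013445-156013744, plus strand: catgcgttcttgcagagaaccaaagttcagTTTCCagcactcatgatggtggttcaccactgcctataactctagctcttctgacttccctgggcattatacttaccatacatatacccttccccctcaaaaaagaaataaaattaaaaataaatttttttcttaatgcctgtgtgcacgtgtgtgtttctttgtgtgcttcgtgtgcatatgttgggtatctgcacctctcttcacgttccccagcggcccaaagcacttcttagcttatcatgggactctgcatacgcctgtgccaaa

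The table of promoters holds 10 for 8 of the 10 genes, with none for Cd28 and Icos. GGAAA on either strand was in all 10 of these promoters and in 20151 of 32851 mouse promoters of the same length (61.3%). GGG followed by any 5 bases and CC on either strand, a degenerate form of the NF-kappaB site, was in 3 of the 10 and in 50.8% of all promoters. It was in none of the 3 printed, so no capitals overlap with it. A match is a run of letters and not a measured binding site.

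Traf1, the adaptor, was lower in the hyperglycemic mice in both fits. Its probe (A_51_P343833, mm8 chromosome 2, 34765371 to 34765430) read 51.4 and 59.0 units in Cy5 in the 2 hyperglycemic mice over local backgrounds of 37 and 39, against 8111 and 5027 units in Cy3 for the pool. After dye normalization by the scanning software the signals were 606 and 1184 in the hyperglycemic mice, against 3322 and 5606 in the pool. Each hyperglycemic value lay below the pool on its own array. The 2 pool values are readings of 1 sample, so they hold no spread of control animals. The processed log2 ratios were -2.46 for mouse 1 and -2.24 for mouse 2, a mean of -2.35 ± 0.15 (SD, n = 2) or 5.10-fold lower, with a limma adjusted p of 4.14e-04. The normexp log2 ratios were -0.67 and -1.39, a mean of -1.03 ± 0.51 (SD, n = 2) or 2.04-fold lower, with an adjusted p of 0.0488. Both mice lay below the pool by either measure, and mouse 2 was the lower of the 2 by normexp only. Traf1 ranked 5 from the lowest of 5072 deposited ratios and 10 from the lowest of 8815 normexp ratios. Its normexp call was lost when the offset was 10 (adjusted p 0.0633), and with the filter on array 2 alone (0.174), on both channels (0.105) or on nothing (0.322).

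Tnfrsf18 encodes GITR, a costimulatory receptor that regulatory T cells carry constantly and that other T cells gain on activation. Its probe (A_51_P469401, mm8 chromosome 4, 154872540 to 154872599) read 53.5 and 56.6 units in the 2 hyperglycemic mice over backgrounds of 35 and 33, against 6452 and 3772 units in the pool. Dye-normalized signals were 736 and 997 in the hyperglycemic mice, against 2734 and 4215 in the pool. Each mouse was below the pool on its own array. The processed log2 ratios were -1.89 for mouse 1 and -2.08 for mouse 2, a mean of -1.99 ± 0.13 (SD, n = 2) or 3.96-fold lower, with a limma adjusted p of 5.41e-04. The normexp log2 ratios were -0.50 and -1.03, a mean of -0.76 ± 0.38 (SD, n = 2), with an adjusted p of 0.0621. Both mice were below the pool in each version, but the normexp ratio did not pass the test as fitted. It passed with no background correction (adjusted p 3.09e-04), a trended variance (1.25e-05) and median centring (3.95e-34). Those settings called 919, 514 and 8618 probes lower, against 43 as fitted. It did not pass with offset 10 (0.0816). Nor did it with the filter on both channels (0.119), on array 2 alone (0.181) or on nothing (0.324). The processed ratio did not pass under the normexp filter (0.0575). Tnfrsf18 ranked 16 from the lowest of the deposited ratios and 46 from the lowest of the normexp ratios.

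Tnfrsf4 encodes OX40, which prolongs the survival of activated CD4 T cells. Its probe (A_51_P469433, mm8 chromosome 4, 154860326 to 154860385) lies 12155 bases from that of Tnfrsf18. It read 80.4 and 89.5 units in the 2 hyperglycemic mice over backgrounds of 38 and 35, against 6584 and 3646 units in the pool. Dye-normalized signals were 2173 and 3102 in the hyperglycemic mice, against 2696 and 4041 in the pool. Here too each mouse was below the pool on its own array. The processed log2 ratios were -0.31 and -0.38, a mean of -0.35 ± 0.05 (SD, n = 2) or 1.27-fold lower, and the adjusted p was 0.105. The normexp ratios were -0.26 and -0.37, a mean of -0.32 ± 0.08 with an adjusted p of 0.169. Tnfrsf4 thus passed neither test, while its 2 arrays differed by little.

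The neighbouring genes differed from each other on both arrays. Tnfrsf18 minus Tnfrsf4 was -1.58 for mouse 1 and -1.70 for mouse 2 in processed log2 ratios, a mean of -1.64 ± 0.08 (SD, n = 2). In normexp ratios it was -0.24 and -0.66, a mean of -0.45 ± 0.29. The sign was negative in every alternative fit, though filters and a trended variance leave these values unchanged. The smallest mean difference was -0.32, under median centring. The difference was not tested, and an exact sign-flip test over 2 arrays cannot go below a two-sided p of 0.5.

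**Figure D2:**
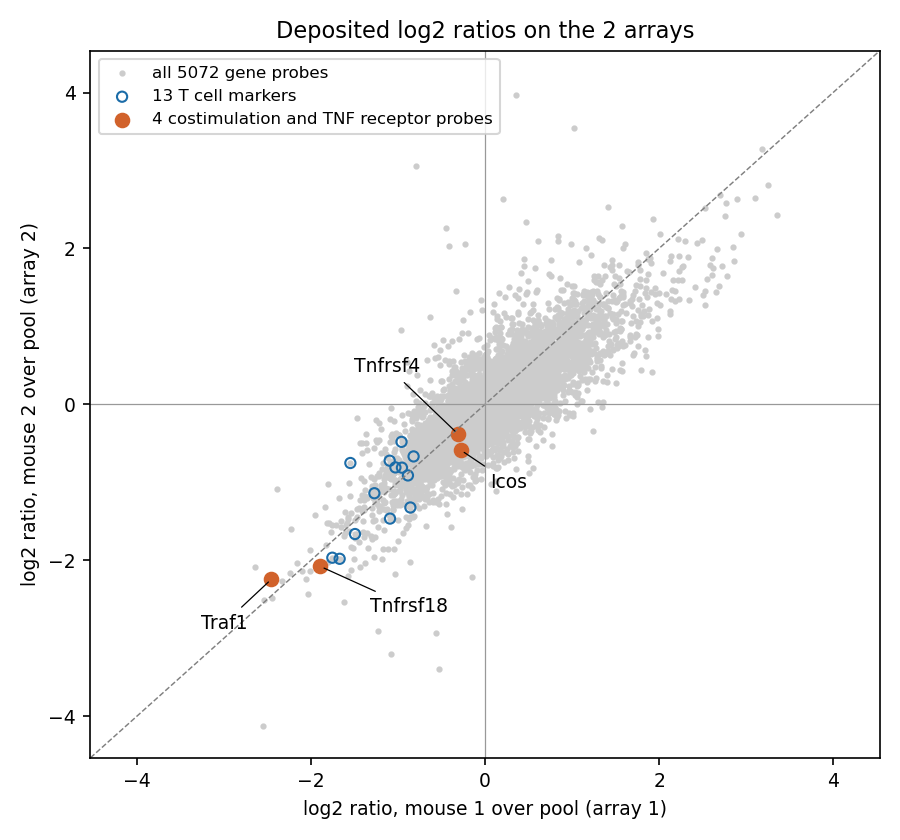
Deposited log2 ratios of mouse 1 (array 1, x axis) and mouse 2 (array 2, y axis) over the same pool, for all 5072 gene probes in the deposited table (grey), 13 T cell marker genes (blue rings) and the 4 member probes in that table (orange). The dashed line marks equal ratios. Traf1 and Tnfrsf18 lie at the low end near the dashed line, and Tnfrsf4 and Icos lie just below 0 on both axes.

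Cd27 encodes a receptor of naive and memory T cells that binds CD70. Its probe (A_51_P229664, mm8 chromosome 6, 125198677 to 125198736) read 45.8 and 47.1 units in the hyperglycemic mice over a background of 36 on each array, against 1535 and 861 units in the pool. The Cy5 signal was well above background in mouse 1 and not in mouse 2. The processed log2 ratios were -0.33 and -0.71, and the normexp ratios -0.04 and -0.23. The normexp mean of -0.14 ± 0.13 (SD, n = 2) had an adjusted p of 0.526. Cd27 was below the pool on both arrays by a margin that did not pass the test.

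Tnfrsf9 encodes 4-1BB, which appears on T cells after activation. None of its 3 probes was well above background in Cy5 on either array, and 1 of them (A_52_P210511, mm8 chromosome 4, 149788797 to 149788856) was so in Cy3, on array 2 alone. That probe read 35.6 and 37.7 units in the hyperglycemic mice, against 150 and 108 units in the pool. The 2 other probes (A_52_P75441 at 149789243 to 149789302 and A_51_P137836 at 149771529 to 149771588) read 35.8 to 38.6 units in the hyperglycemic mice and 47.0 to 64.9 units in the pool, and were well above background in neither channel. Normexp ratios of the 3 probes lay within 0.05 of 0 on both arrays. No level of Tnfrsf9 in the hyperglycemic mice, and no difference from the pool, was detectable at this signal.

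Icos encodes the inducible costimulator of follicular helper and regulatory T cells, and its 2 probes, 1909 bases apart, differed in brightness. The brighter one (A_52_P682768, mm8 chromosome 1, 60944773 to 60944832) read 51.6 and 53.3 units in the hyperglycemic mice over backgrounds of 33 and 40, against 2369 and 1377 units in the pool. Its processed log2 ratios were -0.28 for mouse 1 and -0.59 for mouse 2, a mean of -0.43 ± 0.22 (SD, n = 2) or 1.35-fold lower, with a limma adjusted p of 0.0659. Its normexp ratios were -0.06 and -0.47, a mean of -0.26 ± 0.29 with an adjusted p of 0.346. Icos by this probe was below the pool on both arrays and passed neither test. The other probe (A_51_P371279, 60942805 to 60942864) read 37.8 and 36.6 units in the hyperglycemic mice, not well above background, against 249 and 161 units in the pool. It was well above background in the pool on array 2 alone, with normexp ratios of 0.01 and -0.04, so it neither repeats nor contradicts the first.

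Cd28 encodes the costimulatory receptor for CD80 and CD86 and was spotted 10 times by probe A_52_P162967 (mm8 chromosome 1, 60717381 to 60717440). The 10 spots read 34.4 to 41.8 units in mouse 1 (median 38.2) and 37.3 to 41.7 units in mouse 2 (median 38.7), against 609 to 1854 units (median 672) and 332 to 436 units (median 416) for the pool on array 1 and array 2. No Cy5 spot was well above background on either array. In Cy3 10 of 10 spots were so on array 2 and 3 of 10 on array 1, and those 3 lay where the fitted Cy3 background was highest (364, 520 and 755 units, against 97.1 to 210 units at the other 7). Processed ratios of single spots ran from -2.70 to 0.15 on array 1 (median -1.59) and from -2.43 to -0.77 on array 2 (median -2.22). The spot at -2.70 was flagged as an outlier on array 1 and is left out of the averages below. The next lowest was -2.28. The same probe and the same RNA thus gave a spread of more than 2 log2 units over the spots of array 1, also without the outlier. Averaged over spots the processed ratios were -1.26 and -1.95, and the normexp ratios -0.03 and -0.12. The scanning software had replaced the Cy5 signal by a surrogate at 5 of the 10 spots on array 1 and 6 on array 2. The processed ratios of Cd28 therefore do not fix the size of a difference. A second probe (A_52_P271511, 60708569 to 60708628) read 36.2 and 36.3 units in the hyperglycemic mice and 65.0 and 53.9 units in the pool and was well above background in neither channel.

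**Figure D3:**
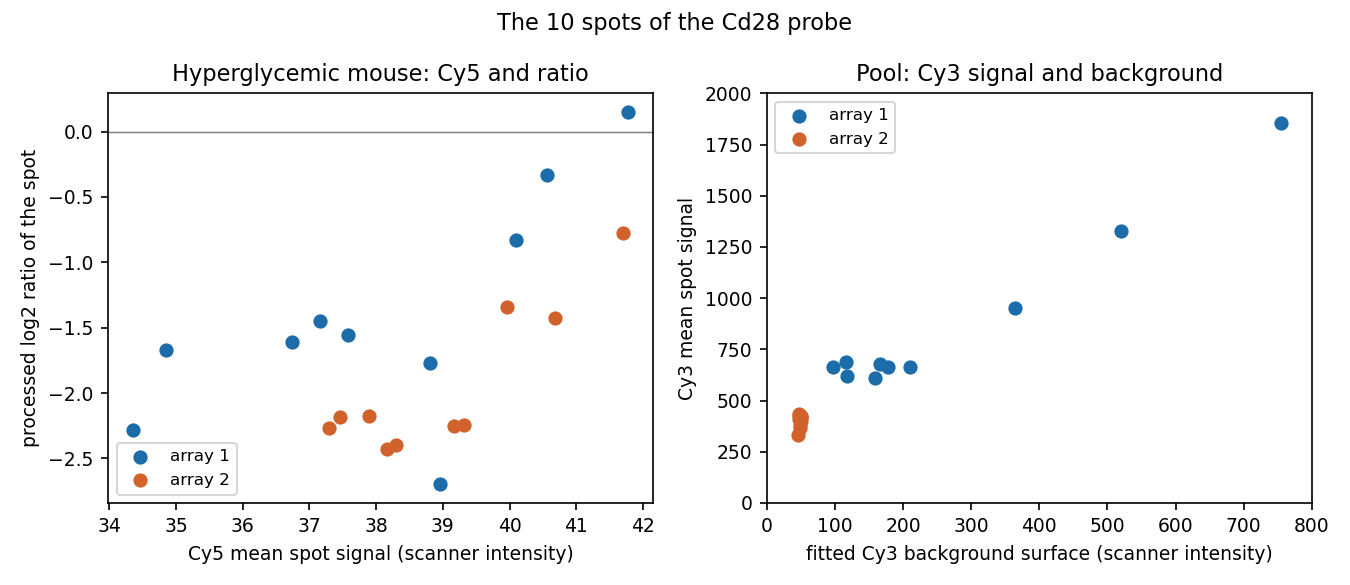
The 10 spots of Cd28 probe A_52_P162967 on array 1 (blue) and array 2 (orange). The left panel plots the processed log2 ratio of each spot against its Cy5 signal in the hyperglycemic mouse, and the right panel plots the Cy3 signal of the pool against the fitted Cy3 background surface, both in scanner units. On array 1 the Cy3 signal and its fitted background are highest at the same 3 spots, up to 1854 and 755 units. The spot at 1854 units was flagged as an outlier. On array 2 all 10 spots lie close together in the right panel, while their processed ratios in the left panel run from -2.43 to -0.77.

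Ctla4 and Pdcd1 encode the inhibitory receptors. Pdcd1 (A_51_P285736, mm8 chromosome 1, 95868893 to 95868952) read 38.0 and 36.9 units in the hyperglycemic mice over backgrounds of 34 and 32, which was not well above background, against 1159 and 692 units in the pool, which was. The normalized pool signal was set against the higher of each array's lowest detected Cy5 signal and the probe's own. This gave 1.13-fold lower in the hyperglycemic mice. The probe's own signal was the higher, so the value repeats the normexp mean and is no bound. The normexp ratios were -0.06 and -0.30, and their mean of -0.18 ± 0.17 (SD, n = 2) had a limma adjusted p of 0.437. The processed ratios were -2.36 and -2.82, but the scanning software had replaced the Cy5 signal by a surrogate on both arrays. Both ratios of Pdcd1 were below 0 on each array, but the probe passed the filter through the pool channel alone, which favours a negative sign. The Cy5 signal therefore fixes neither the direction nor the size of a difference. Under median centring Pdcd1 was 0.23 above the median of all probes. Without background correction its mean was -0.49, with an adjusted p of 0.0323.

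Ctla4 (A_52_P184548, mm8 chromosome 1, 60859210 to 60859269) read 36.7 and 34.5 units in the hyperglycemic mice, against 107 and 80.6 units in the pool. The hyperglycemic signal was not well above background in either mouse, and that of the pool was so on array 2 only. The normexp ratios were -0.01 and -0.07, a mean 1.03-fold lower. With Cy5 not well above background, the size of a difference in Ctla4 is not fixed.

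Foxp3 (A_51_P401096, mm8 chromosome X, 6751991 to 6752050) read 38.1 and 34.8 units in the hyperglycemic mice, not well above background, against 353 and 117 units in the pool, well above background on array 2 only. The spot on array 1 lay on a fitted Cy3 background of 350 units, against 42.9 units on array 2. The normexp ratios were -0.01 for mouse 1 and -0.19 for mouse 2, a mean 1.07-fold lower. The normexp mean was 1.05-fold lower for the repeated Cd28 probe and 1.01-fold lower for the dimmer Icos probe. Each had the pool well above background on array 2 alone. Tnfrsf9 probe A_52_P210511, also above background in the pool on array 2 alone, had a normexp mean of 0.02. With Cy5 not well above background, none of these sizes is fixed. The processed ratio was listed at 0.00 on array 1 for Foxp3, Ctla4, the dimmer Icos probe, the second Cd28 probe and all Tnfrsf9 probes, so that ratio has no order among them. On array 2 these probes had processed ratios from -1.18 (Tnfrsf9 A_52_P210511) to 0.00 (Tnfrsf9 A_51_P137836), with -0.95 for Foxp3 and -0.73 for Ctla4, all with a surrogate in Cy5.

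**Figure D4:**
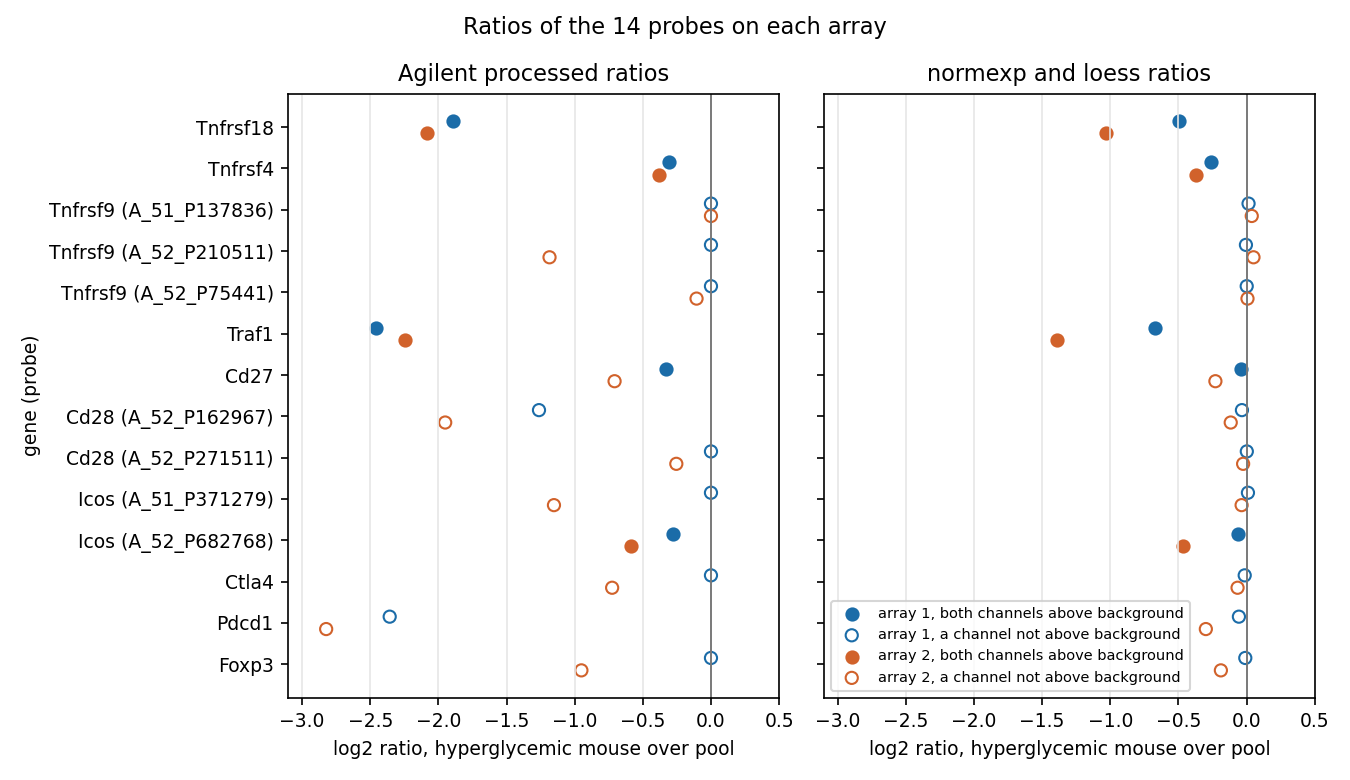
Log2 ratios of the hyperglycemic mouse over the pool for the 14 probes on array 1 (blue) and array 2 (orange), as processed by the scanning software (left panel) and after normexp correction and loess (right panel). Filled points had both channels well above background, and open points did not. Traf1 and Tnfrsf18 are lowest among the filled points in both panels, and the processed ratio of Pdcd1, an open point, lies near that of Traf1 on the left and at -0.06 and -0.30 on the right.

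In the normexp fit 0 of the 6 member probes tested were called higher and 1 (Traf1) was called lower, beside 4.74% of all probes called higher and 0.488% called lower. In the deposited-ratio fit 0 of 4 were called higher and 2 (Traf1 and Tnfrsf18) lower, beside 25.1% called higher and 18.4% lower. At an unadjusted limma p under 0.05 the members had 0 higher and 3 lower in each fit, beside 955 higher and 758 lower of 8815 probes by normexp and 1515 higher and 1153 lower of 5072 deposited ratios. All 6 and all 4 lay below 0 on both arrays, a property of 43.8% and 37.4% of all probes. The median ratio of the members was -0.29 over 6 probes by normexp and -1.21 over 4 deposited ratios, against -0.03 and 0.06 over all probes. All 6 passed the filter in the pool channel, and Pdcd1 and Cd27 were dim in Cy5 on at least 1 array, so these counts do not stand for all 14 probes. With the filter on array 2 alone, a setting added for the processed ratios after the data were seen, 3 of 11 were called lower (Pdcd1, Traf1 and Tnfrsf18, at adjusted p of 1.89e-04, 0.00112 and 0.0101), beside 3.08% of all probes, and the Cy5 value of Pdcd1 is a surrogate there. None of the 11 was called higher there, beside 2.35% of all probes. Pdcd1 passed that filter through the pool channel alone, which favours low ratios, so its call is no support for a lower level. In that fit 71.9% of all probes had a mean below 0, with a median of -0.30. The normexp ratios under that filter gave 0 lower and 0 higher calls among the 11, beside 0.00775% of all probes called lower and 0.453% called higher. At an unadjusted limma p under 0.05 there were 3 lower and 0 higher of the 11, beside 1337 lower and 1375 higher of 25802 probes. With 2 arrays no likeness of pattern to other genes can be measured, and none is given.

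The markers of the T cell, the cell type that carries most of these genes, were lower in the hyperglycemic mice by the deposited ratios. All 13 T cell markers with a deposited ratio were called lower, with a median log2 ratio of -1.09 and the lowest at -1.86 (Cd3g), beside 18.4% of all genes. By normexp 1 of 17 was called lower, with a median of -0.37. Summed processed signals of the 20 markers were 18252 and 27669 in the hyperglycemic mice, against 40349 and 62313 in the pool, and 5 of the 20 (Cd3e, Cd4, Cd8b1, Bcl11b and Ubash3a) were not well above background in Cy5 on either array. In deposited ratios Traf1 (-2.35) and Tnfrsf18 (-1.99) lay below the lowest T cell marker. Icos (-0.43) and Tnfrsf4 (-0.35) lay above the highest, at -0.72. By normexp the 17 markers ran from -0.74 to -0.12. Traf1 (-1.03) lay below them and Tnfrsf18 (-0.76) just below, while Tnfrsf4 (-0.32) and Icos (-0.26) lay inside their range. The part of the T cell signal in the members' ratios was not tested.

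Markers of other cells also differed between the groups. Of 21 exocrine pancreas markers 20 were called higher by normexp, while the deposited ratios called 11 higher and 2 lower, and their summed processed signal was 2682600 and 4905700 in the hyperglycemic mice, against 2097500 and 3021200 in the pool, with no marker of the 21 dim. B cell markers summed to 19424 and 31276 in the hyperglycemic mice, against 25342 and 40174 in the pool, with 5 of 12 dim in Cy5 on both arrays. They did not go 1 way. Of 6 with a deposited ratio 1 was called higher and 2 lower, with a median of -0.21, beside 25% and 18.4% of all genes. By normexp 0 of 9 were called in either direction. Median deposited ratios of the 6 other marker lists, with 1 to 10 genes each, ran from -1.43 for adipocytes to 1.46 for neutrophils, of which 1 marker was measured. The part of these signals in the members' ratios was not tested either.

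The other genes of these pathways were read from 6 lists. By normexp no gene of any of the 6 lists was called in either direction, with medians between -0.20 and -0.01, beside 5.15% of all genes called higher and 0.493% lower. The calls that follow come from the deposited ratios, beside 25% of genes called higher and 18.4% lower.

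Among costimulatory and checkpoint ligands 3 of 16 had a deposited ratio, and none was called, with a median of 0.13. They were Cd274, the ligand of PD-1, Icosl, the ligand of ICOS, and Pvr. Cd274 was at 1.01 in mouse 1 and -0.12 in mouse 2, so the mice lay on opposite sides of the pool.

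Among other TNF receptor family members 4 of 18 had a deposited ratio, with 1 called higher and 2 lower. Ltbr, the lymphotoxin beta receptor of stromal and myeloid cells, was at 1.45 and 0.77 (adjusted p 0.00480). Tnfrsf13c, the BAFF receptor of B cells, was at -0.55 and -0.94 (0.0114), and Tnfrsf25, the death receptor 3 of T cells, at -0.78 and -0.33 (0.0367). Both Tnfrsf13c and Tnfrsf25 were nearer to 0 than Tnfrsf18.

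Among TRAF adaptors and proximal signalling genes 4 of 14 were called lower and 0 higher, with a median of -0.32. Traf3ip3, a TRAF3-binding protein of lymphocytes, was at -0.84 on both arrays (0.00515). Casp8, the initiator caspase of death receptors, averaged -0.70, Traf5, an adaptor of OX40 and CD27, averaged -0.50, and Traf3, which restrains noncanonical NF-kappaB signalling, averaged -0.46. All 4 were nearer to 0 than Traf1 at -2.35.

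Among other costimulatory and inhibitory receptors 3 of 4 were called lower and 1 higher. Cd48, a SLAM family receptor of lymphocytes, was at -1.56 and -1.63, a mean of -1.59, Cd5 averaged -1.09, and Cd6 averaged -0.61. Btla, an inhibitory receptor of B and T cells, was at 0.67 and 0.54, higher in both hyperglycemic mice. Cd5 is also in the list of T cell markers.

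Of the regulatory T cell-associated genes 3 of 4 were called lower and 0 higher. Batf, a factor of activated T cells, was at -0.76 and -1.19, Satb1, a chromatin organiser of T cells, at -1.25 and -0.48, and Il2rb, the beta chain of the interleukin-2 receptor, at -0.45 and -0.95. None of these 3 is found in regulatory T cells alone, and Foxp3 itself was not well above background in Cy5.

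Of the enzymes and adaptors below CD28, ICOS, CTLA4 and PD-1, 5 of 14 were called lower and 1 higher. Ptpn6, the phosphatase SHP-1 of all blood cells, was at -1.47 and -1.66, a mean of -1.56 ± 0.14 (SD, n = 2). Vav1, an exchange factor of blood cells, averaged -0.54. Ptpn11, the widely expressed phosphatase SHP-2 that binds PD-1, was at 0.56 and 0.59, higher in both hyperglycemic mice.

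**Figure D5:**
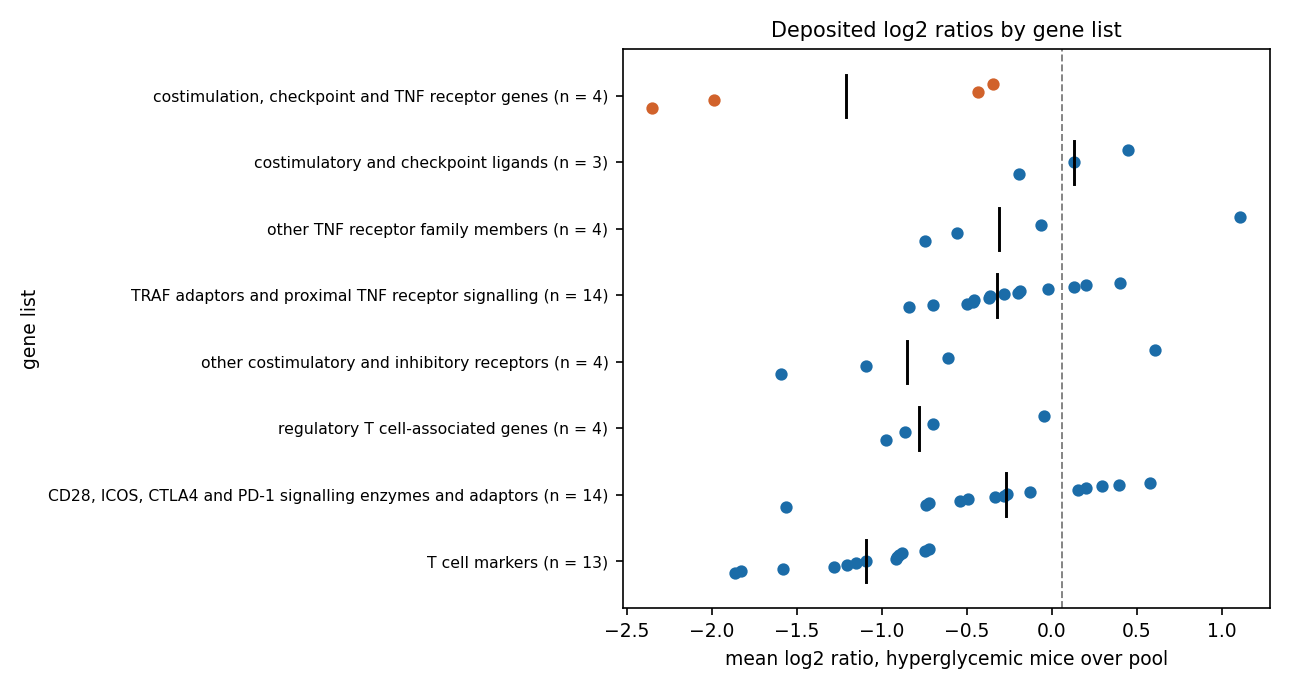
Mean deposited log2 ratio of the 2 hyperglycemic mice over the pool for each gene with a deposited ratio, by gene list, with the 4 members in orange on top and the lists in blue. Black bars mark list medians, and the dashed line marks the median of all genes (0.06). The members split into a pair at -2.35 and -1.99 and a pair at -0.43 and -0.35, and the 13 T cell markers lie between these pairs.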

How the data were processed

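Two-colour Agilent-014868 arrays were hybridised with 1 ug of total RNA per sample, per the labels. Per the file headers, Agilent Feature Extraction 10.7.3.1 read the scans, and the columns of spot and local background signal are scanner intensity, not normalized. For processed intensity the software, per the file headers, subtracted background with spatial detrending, set surrogates for spots too dim to exceed it and normalized the dyes; its log10 ratios are Cy5 over Cy3. The deposited value table holds log2 ratios, equal to those log10 ratios on the log2 scale (largest difference 3e-06), with medians of 0.08 and 0.03. How its 5098 probes were chosen is not given in the sources used here.

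The normexp ratios come from mean spot signals (normexp, offset 50; loess, span 0.3; outlier spots left out; spots of a probe averaged), for probes that each array flagged as well above background in Cy5, Cy3 or both. limma 3.58.1 in R 4.3.3 (lmFit, eBayes) tested ratios against 0, two-sided, with 1 residual degree of freedom, and its calls were tested on simulated data. A gene with several probes took the brightest in list counts. Positions of probes are on mm8, as the files give them, and promoters are on GRCm38.p6. Names of 14 of 14 probes came from the files. The members, lists and tests were chosen with earlier results of these data known. Of lists, the called genes with at most the 4 lowest and 4 highest ratios are named, except that some of them are not reported here. The number of arrays limits the precision.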

Additional observations from a re-analysis of the deposited data

How the results depend on the processing

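The counts of calls depended on the setting. Probes called higher numbered 418 and lower 43 by normexp with offset 50, against 93 and 9 with offset 10, 1180 and 919 with no background correction, 1 and 8618 with median centring, and 666 and 514 with a trended variance. Under other filters they were 94 and 0 with both channels, 24 and 0 with none, and 117 and 2 with array 2 alone. Processed log ratios gave 0 and 0 (limma, with 1257 and 2139 at an unadjusted p under 0.05), the deposited ratios 1274 and 931, and, added after the data were seen, processed ratios 1275 and 934 with the filter on both channels and 606 and 794 with that on array 2 alone. For the 0 lower calls, 421 probes with the filter on both channels and 1569 with no filter had an unadjusted p under 0.05. Member probes called lower numbered 1 by normexp, and 0 with offset 10, processed ratios, the filter on both channels, none or array 2 alone (3 at an unadjusted p under 0.05 in each), 3 with no background correction, 6 with median centring, 2 with the deposited ratios, the trend, or processed ratios filtered on both channels, and 3 with these filtered on array 2. No fit called a member higher.

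Of 72 alternative values of the 6 tested probes 72 were below 0. Many of these values repeat each other. Filters and the trend leave a ratio unchanged, and the deposited ratios equal the processed ones. Under median centring 99.2% of all probes had a mean below 0. The 72 are therefore not separate evidence of direction. Traf1 left the called side in 5 settings, 4 of them named beside its result and the processed ratios under the same filter (adjusted p 0.0575), and Tnfrsf18 reached it in 6. Leaving out either array gave -0.67 or -1.39 for Traf1 and -0.50 or -1.03 for Tnfrsf18 by normexp, with no test. Median centring, which fits no dye trend over intensity, gave a median over all probes of -2.01, and relative to it Pdcd1 was at 0.23, Cd27 at -0.02, Traf1 at -2.26 and Tnfrsf18 at -1.85. Cy5 signal within a few units of background limits the size of all ratios. No paired analysis was possible because each array already sets its mouse against 1 common pool.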
